A study of Mus musculus with 42 samples.

Results

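Nnt, the nicotinamide nucleotide transhydrogenase gene, is 1 of the 27398 distinct gene names on the array and was read by 3 of its 41174 probes, chosen by the gene name Nnt that the scanner files give them. Each probe was taken on its own. Nnt encodes an enzyme of the inner mitochondrial membrane that uses the proton gradient to pass a hydride from NADH to NADP+, which yields NADPH in the matrix. Matrix NADPH feeds the glutathione and thioredoxin systems that remove peroxides. The gene is known to differ among C57 mice: the C57BL/6J substrain carries an internal deletion of several exons, which C57BL/6N and most other strains lack. The labels call the control mice C57, the study's methods call them C57BL/6, and a legend on histology names C57BL/6J, so that the substrain behind these arrays is not settled.

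RNA of aorta and of skeletal muscle was hybridised to 42 one-colour Agilent arrays, 3 for each of 7 groups of male mice in each of the 2 tissues. The healthy group (G) held C57 mice with no diabetes. All other groups held KK/Ay mice, an inbred diabetic strain that carries the yellow Ay allele at the agouti locus. The macroangiopathy group (C) received a high-fat diet and the nitric oxide synthase inhibitor L-NAME for 8 weeks, and the spontaneous diabetic group (A) received neither. Per the study's methods, the healthy, diabetic and macroangiopathy groups were given saline by gavage for 8 weeks. The SHENQI (B), yangyinyiqi (D), huoxue (E) and rosiglitazone (F) groups were KK/Ay mice of the same macroangiopathy model. They were then treated with that herbal preparation or drug by gavage for 8 weeks. Mice entered the study at 18 to 20 weeks of age. Every KK/Ay group differed from the healthy group in strain as well as in diabetes, and the effects of these cannot be told apart. All KK/Ay groups but the diabetic one also had the high-fat diet and L-NAME, and most had a treatment. The pooled difference of KK/Ay from C57, called the strain difference below, holds these as well. According to the methods, tissue was taken from 3 mice of each group. The labels do not tie arrays to mice, so p-values measure the spread between these arrays.

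All 3 probes lie at the 3′ end of Nnt on the minus strand of chromosome 13, within 639 bases of each other (mm9 coordinates of the scanner files). Probe A_51_P113399 matches the end of the coding sequence at chr13:120125108-120125167. It is printed because it is the one Nnt probe within the coding sequence, read 5′ to 3′ and all in lower case since no part of it is singled out:
A_51_P113399: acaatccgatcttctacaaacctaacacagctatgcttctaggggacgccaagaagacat
Probes A_51_P113395 (chr13:120124822-120124880) and A_52_P395228 (chr13:120124529-120124588) lie further downstream and were taken as 3′ UTR probes, and their letters are not shown. The start of A_52_P395228 was 579 bases beyond that of A_51_P113399 both in the genome and in the transcript NM_008710, which places the 2 probes in one exon. None of the 3 probes lies in the internal exons of the gene, so a transcript with an internal deletion and one without would both be read if they reach this 3′ end.

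The level of Nnt separated the 2 strains in both tissues. Across all 3 probes, every one of the 18 KK/Ay arrays of a tissue lay above all 3 C57 arrays of that tissue. For this and the overlaps given below, the share of all probes that do the same was not counted. Values below are log2 intensities after background correction and quantile normalization, and levels of different probes are not comparable with one another. All 3 probes were well above background on all 42 arrays.

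For the coding probe A_51_P113399, the 3 healthy aorta arrays read 7.50, 7.31 and 7.60. The 18 KK/Ay aorta arrays ran from 7.94 through a median of 8.50 to 8.98. The lowest KK/Ay array, of the SHENQI group, was 0.34 above the highest healthy one. In skeletal muscle the 3 healthy arrays read 9.14, 9.09 and 8.996. The 18 KK/Ay muscle arrays ran from 9.76 through 10.27 to 10.90, and the lowest, of the macroangiopathy group, was 0.62 above the highest healthy array.

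For A_51_P113395 the healthy aorta arrays read 7.46, 7.33 and 7.46, with the KK/Ay aorta arrays from 8.07 through 8.59 to 9.02. The healthy muscle arrays read 9.06, 9.01 and 9.08, with the KK/Ay muscle arrays from 9.99 through 10.54 to 10.85. The gap between the strains was thus 0.61 in aorta and 0.91 in muscle. For A_52_P395228, the most downstream probe, the healthy aorta arrays read 9.47, 8.98 and 9.62 and the KK/Ay aorta arrays 10.47, 11.43 and 12.07 as lowest, median and highest. In muscle the healthy arrays read 11.99, 11.40 and 11.39 and the KK/Ay arrays 12.47, 13.09 and 13.59. Here too the groups did not overlap, with gaps of 0.86 in aorta and 0.48 in muscle.

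**Figure D1:**
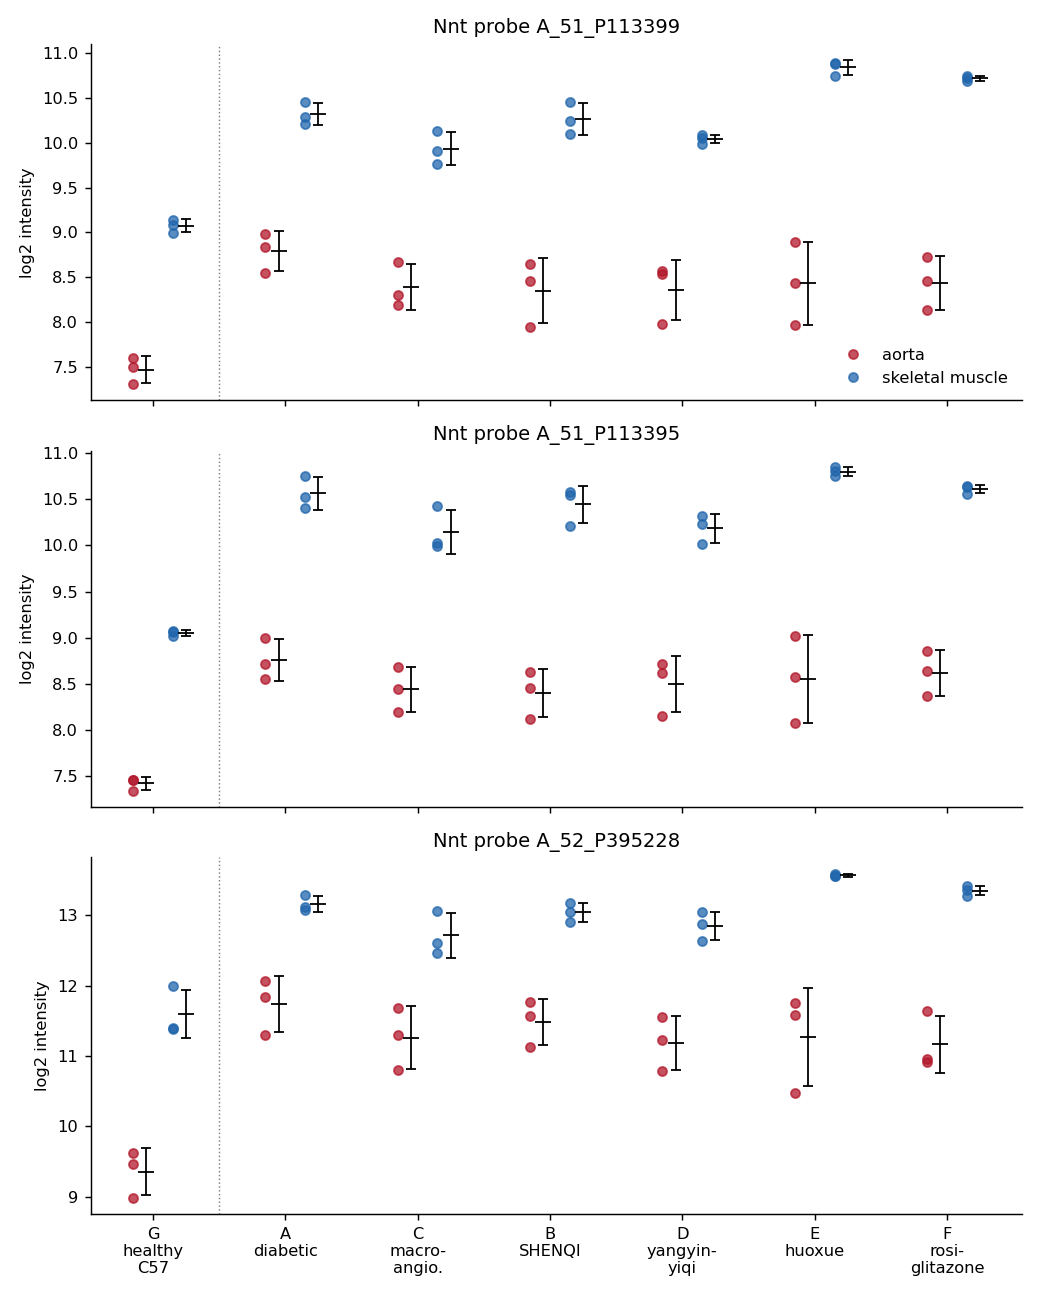
Log2 intensity of each Nnt probe (y axis) by group (x axis), one point per array, red for aorta and blue for skeletal muscle; the black mark beside the points is the mean with its SD (n = 3). The C57 points, left of the dotted line, lie below every KK/Ay point of the same tissue and probe, and muscle lies above aorta within every group.

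In limma's fit of all 42 arrays (adjusted p over the 29158 probes tested), KK/Ay exceeded C57 over both tissues by 1.76 ± 0.15 (SE) for A_52_P395228, which is 3.38-fold (adjusted p = 2.21e-10). The difference was 1.14 ± 0.10, or 2.20-fold, for A_51_P113399 (adjusted p = 8.98e-10) and 1.27 ± 0.10, or 2.41-fold, for A_51_P113395 (adjusted p = 4.30e-11). All 3 probes were called, against 29.5% of all probes tested. By the size of the increase they ranked 38, 205 and 139 among the 29158 probes, in the order just given.

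Within aorta the fit gave 2.00 ± 0.21 for A_52_P395228, 0.99 ± 0.14 for A_51_P113399 and 1.13 ± 0.14 for A_51_P113395 (limma, adjusted p = 4.24e-08, 8.31e-06 and 7.53e-07). Within skeletal muscle it gave 1.52 ± 0.21, 1.28 ± 0.14 and 1.41 ± 0.14 in the same order (limma, adjusted p = 3.63e-06, 1.30e-07 and 1.11e-08). Of all probes, 25.5% were called in aorta and 15.1% in muscle. The 2 dimmer probes lie close to the background in C57 aorta, and there their difference was larger under another processing: with the scanner's background-subtracted signal, scaled to each array's 75th percentile, it came to 1.73 and 2.00 for A_51_P113399 and A_51_P113395.

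The strain difference did not pass the test for a difference between tissues. The excess of the aorta difference over the muscle difference was 0.48 ± 0.30 for A_52_P395228, -0.29 ± 0.20 for A_51_P113399 and -0.28 ± 0.20 for A_51_P113395 (limma, adjusted p = 0.328, 0.403 and 0.391). Of all probes, 10.1% were called in that test.

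Muscle carried more Nnt signal than aorta in both strains. Over the 7 groups, aorta was lower than muscle by 1.83 ± 0.10 for A_52_P395228 (limma, adjusted p = 3.00e-16). The difference was -1.85 ± 0.07 for A_51_P113399 and -1.88 ± 0.07 for A_51_P113395 (limma, adjusted p = 2.09e-20 and 6.14e-21). The background for this comparison was high, at 75.5% of all probes called. Aorta and muscle arrays lay on different slides, apart from slide 4. Scan days split in nearly the same way, so tissue can hardly be told apart from slide and scan day. In bulk tissue, fewer cells that express a gene and less RNA per cell cannot be told apart.

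The 3 probes moved together from array to array. Over the 21 arrays of a tissue, Pearson's r between probe pairs was 0.94 to 0.96 in aorta and 0.96 to 0.98 in muscle. These points share their arrays and hold both strains. With the 18 KK/Ay arrays alone it was 0.78 to 0.91 in aorta and 0.91 to 0.95 in muscle, so the probes also tracked one another within the strain.

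The array also holds a probe, A_52_P593890, whose description is that of Nnt but whose gene name is a transcript identifier, ENSMUST00000144599. It lies 57112 bases from the nearest of the 3 probes and is not a member. It was well above background on 1 of 6 C57 arrays and 3 of 36 KK/Ay arrays, and it gave no usable reading of that part of the gene.

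Arrays lay on 11 slides, and no slide held all groups. The strain difference was also present within each slide that held both strains of one tissue. On slide 1, with 2 KK/Ay (groups A and B) and 2 healthy aorta arrays, KK/Ay exceeded healthy by 2.26 for A_52_P395228, 1.19 for A_51_P113399 and 1.05 for A_51_P113395. On slide 2, with 2 SHENQI arrays and 1 healthy aorta array, the differences were 2.36, 0.89 and 1.04. On slide 3, with 2 rosiglitazone and 2 healthy muscle arrays, they were 1.69, 1.62 and 1.60. With slide as a fixed block in a fit of tissue-by-strain means, the difference over both tissues was 2.00, 1.35 and 1.32 (limma, adjusted p = 2.33e-08, 1.09e-08 and 1.22e-08).

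**Figure D2:**
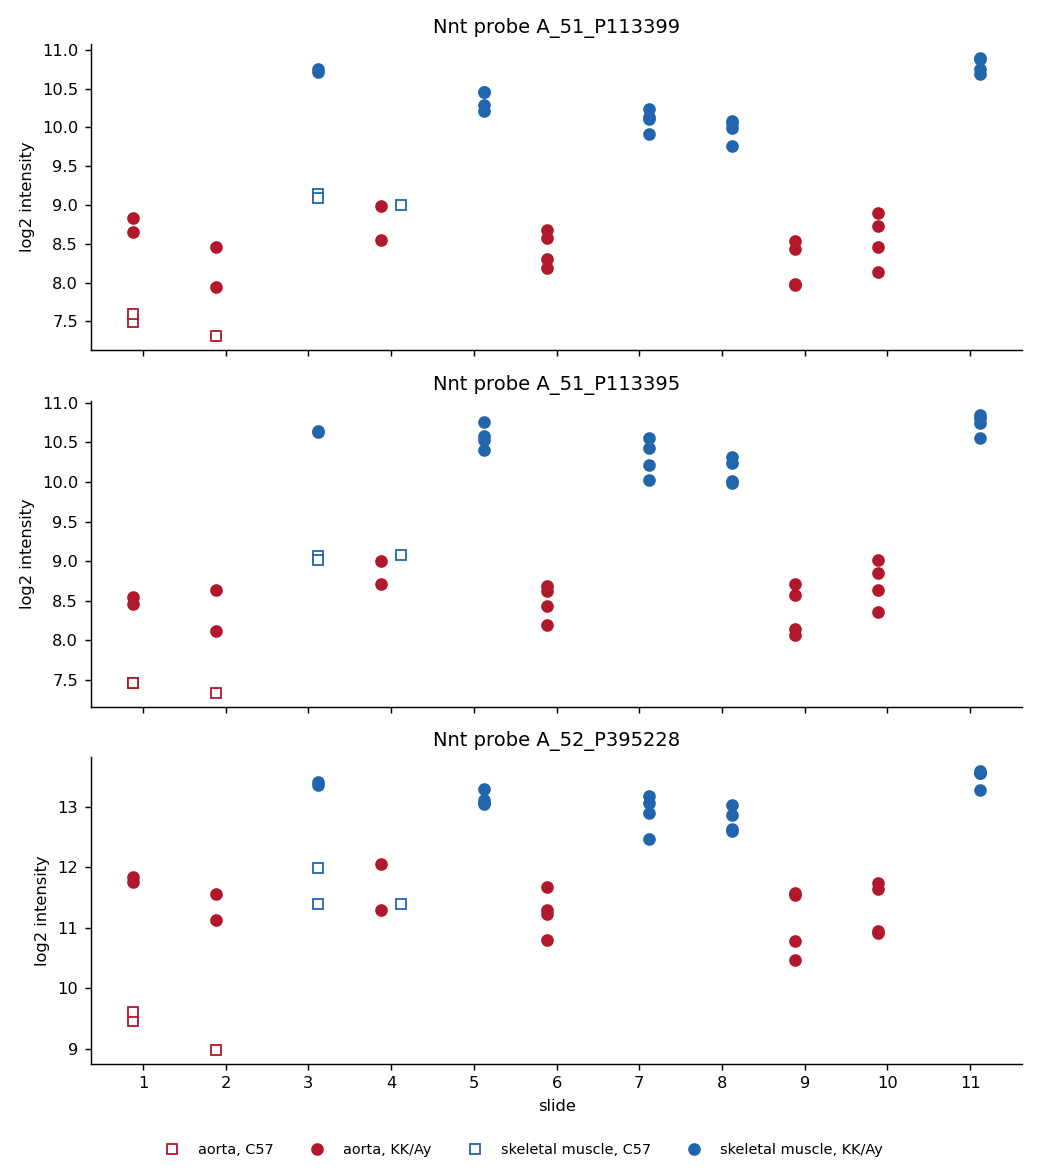
Log2 intensity of each Nnt probe (y axis) by slide (x axis, 1 to 11), one point per array; open squares are C57 arrays and filled circles KK/Ay arrays, red for aorta and blue for skeletal muscle. On slides 1, 2 and 3, which hold both strains of one tissue, every KK/Ay point lies above every C57 point of that tissue.

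Agouti, the gene of the yellow allele, was used to check the strain labels. Its probe was well above background on all 18 KK/Ay arrays of each tissue, with lowest values of 8.84 in aorta and 8.94 in muscle. On the C57 arrays its highest values were 6.72 and 6.74, and it was well above background on 1 of the 6. Every array thus fell on the side its label gives.

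Tissue markers were not equal between the strains. In aorta, 4 of 5 smooth muscle markers (Myh11, Acta2, Tagln and Cnn1) were higher in KK/Ay, with a median difference of 2.06 over the 5 (80% of the list, against 25.5% of all probes called in aorta). The summed smooth muscle intensity was 23520, 322000 and 166400 on the 3 healthy aorta arrays and 129100 to 590800 on the KK/Ay ones. Healthy aorta array 1 was thus the lowest of all aorta arrays for smooth muscle. It also differed from healthy arrays 2 and 3 in its leukocyte sum (181800, against 23690 and 33840). Its adipocyte sum was 94260, against 316100 and 349100. Without it, the aorta difference of Nnt was 2.05, 1.01 and 1.15 for A_52_P395228, A_51_P113399 and A_51_P113395.

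Other cell types were also present. The summed brown adipocyte intensity overlapped between the strains in aorta (C57 115900 to 494400, KK/Ay 119700 to 566300). Elovl3 and Ppargc1a were lower there in KK/Ay (40% of the list, against 25.5% of all probes). In aorta Elovl3 was well above background on all 3 C57 arrays and on 11 of 18 KK/Ay arrays, where its mean of 7.02 is near the floor. In muscle the brown adipocyte sum was 36560 to 123200 in C57 and 122000 to 166100 in KK/Ay, with 0 of 5 markers called. The log2 means in KK/Ay muscle were 17.04 for Cox7a1, 11.11 for Ppargc1a, 10.05 for Cidea, 7.36 for Ucp1 and 6.97 for Elovl3. The muscle sum thus reads mainly Cox7a1, and Ucp1 was well above background on 0 of 3 C57 muscle arrays. Of the 5 skeletal muscle and 5 cardiac muscle markers, 0 were called in either tissue. Of 6 adipocyte markers, Retn was lower and Lep higher in KK/Ay in aorta (-3.67 and 1.34; 33.3% of the list, against 25.5% of all probes). In muscle Retn and Cfd were lower and Lep higher (-2.81, -3.52 and 1.20; 50% of the list, against 15.1% of all probes). In each tissue Lep was well above background on 1 of 3 C57 arrays and on all 18 KK/Ay arrays. It thus entered the tests only through KK/Ay groups, where it is high, and its C57 level is near the floor. Of 5 leukocyte markers, Lyz2 was lower in muscle (-1.34; 20% of the list, against 15.1% of all probes) and none was called in aorta. The part of tissue composition in the Nnt difference was not tested.

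The question of the 2-group comparisons was how diabetes, the macroangiopathy model and each treatment differ. The spontaneous diabetic group exceeded the healthy group in all 3 probes. Its aorta arrays read 11.85, 12.07 and 11.30 and its muscle arrays 13.11, 13.07 and 13.29 for A_52_P395228, all above the healthy arrays. The difference in limma's fit of both tissues was 1.97 ± 0.20 for A_52_P395228, 1.28 ± 0.09 for A_51_P113399 and 1.43 ± 0.10 for A_51_P113395 (adjusted p = 0.000305, 2.72e-05 and 1.42e-05). Of all probes, 4.13% were called.

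The macroangiopathy group exceeded the healthy group as well. Its aorta arrays read 10.80, 11.30 and 11.68 and its muscle arrays 13.07, 12.47 and 12.60 for A_52_P395228, again with no overlap with the healthy arrays. The differences were 1.51 ± 0.22, 0.89 ± 0.10 and 1.06 ± 0.10 for A_52_P395228, A_51_P113399 and A_51_P113395 (limma, adjusted p = 0.00386, 0.000720 and 0.000209). Of all probes, 5.39% were called. With the scanner's processed signal, those of A_51_P113399 and A_51_P113395 were 1.34 and 1.60. Both comparisons use the same healthy arrays. No slide held arrays of both the macroangiopathy and the healthy groups, so slide and group cannot be told apart in that comparison. The diabetic and healthy groups shared a slide in aorta but none in muscle.

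With 3 arrays against 3 in one tissue, fewer of these differences passed. In aorta alone, the 3 probes differed by 2.38, 1.32 and 1.34 between the diabetic and healthy groups and by 1.91, 0.92 and 1.02 between the macroangiopathy and healthy groups, in the order A_52_P395228, A_51_P113399, A_51_P113395. None passed (limma, adjusted p from 0.0699 to 0.105), where 0.0958% and 0.225% of all probes were called. In muscle alone all 3 passed between the diabetic and healthy groups, at 1.56, 1.25 and 1.52 (limma, adjusted p = 0.00962, 0.00370 and 0.00284), where 4.46% of all probes were called. The call of A_52_P395228 there was lost when any 1 of the 3 diabetic arrays was left out (1.59, 1.61 and 1.497).

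In muscle alone, A_51_P113399 and A_51_P113395 passed between the macroangiopathy and healthy groups at 0.86 and 1.10 (limma, adjusted p = 0.0247 and 0.0175). A_52_P395228, at 1.12, did not (adjusted p = 0.0572). Of all probes, 3.24% were called. Both calls were lost when healthy array 1 or any 1 of the macroangiopathy arrays was left out, with differences of 0.76 to 0.95 for A_51_P113399 and 0.96 to 1.18 for A_51_P113395.

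Within KK/Ay mice, Nnt was not called between the macroangiopathy and the diabetic groups. The macroangiopathy group was lower by 0.46 ± 0.17, 0.39 ± 0.10 and 0.37 ± 0.12 in the fit of both tissues for A_52_P395228, A_51_P113399 and A_51_P113395 (differences of -0.46, -0.39 and -0.37; limma, adjusted p = 0.959, 0.864 and 0.914). Of all probes, 0% were called in that comparison, and 1374 of 28141 had an unadjusted p under 0.05. The unadjusted p of the 3 probes was 0.0194, 0.00286 and 0.00831 in limma's fit. In muscle the arrays of both groups did not overlap for A_52_P395228 and A_51_P113399, while they overlapped for A_51_P113395 and for all 3 probes in aorta. The share of all probes without overlap in this comparison was not counted, so this is a description only. The macroangiopathy and diabetic groups shared no slide, so slide and group cannot be told apart here either.

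**Figure D3:**
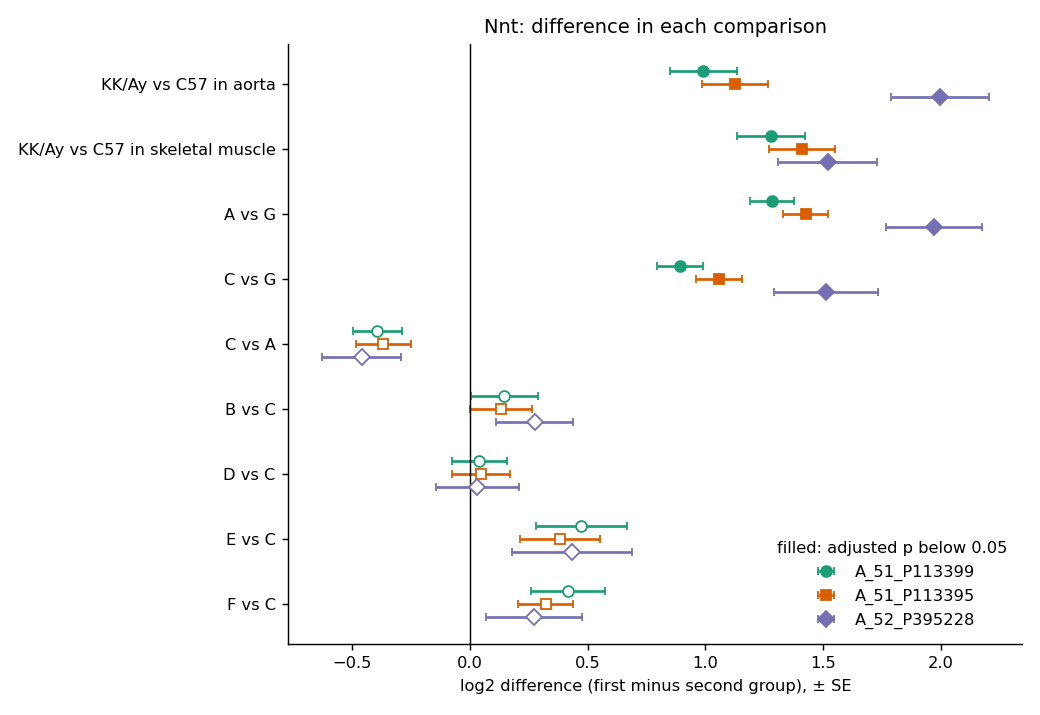
Log2 difference of each Nnt probe (x axis, first minus second group, bars ± SE from limma) in each comparison (y axis); filled symbols passed an adjusted p of 0.05. The 4 comparisons of KK/Ay with C57 mice are filled for all 3 probes, and the 5 comparisons within KK/Ay mice are open.

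The herbal and drug treatments were compared with the macroangiopathy group over both tissues, and Nnt was called in none of them. SHENQI differed from it by 0.28 ± 0.16, 0.15 ± 0.14 and 0.13 ± 0.13 for A_52_P395228, A_51_P113399 and A_51_P113395, and yangyinyiqi by 0.03 ± 0.18, 0.04 ± 0.12 and 0.05 ± 0.12. Huoxue differed by 0.43 ± 0.26, 0.47 ± 0.20 and 0.38 ± 0.17, and rosiglitazone by 0.27 ± 0.20, 0.42 ± 0.16 and 0.32 ± 0.12. The lowest adjusted p of these was 0.247 in limma's fits. Of all probes, 0% were called for SHENQI, yangyinyiqi and huoxue (913, 1076 and 4887 with an unadjusted p under 0.05) and 0.331% for rosiglitazone. These 4 comparisons share the macroangiopathy arrays. The huoxue and rosiglitazone groups shared no slide with the macroangiopathy group.

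In muscle the groups kept one order in all 3 probes, from healthy through macroangiopathy, yangyinyiqi, SHENQI, diabetic and rosiglitazone to huoxue. For the coding probe the means were 9.08, 9.93, 10.04, 10.27, 10.32, 10.72 and 10.84, with SDs of 0.03 to 0.19 (n = 3). For this probe, neighbours overlapped between macroangiopathy and yangyinyiqi and between SHENQI and diabetic, while the other neighbours did not. For A_51_P113395 and A_52_P395228, yangyinyiqi and SHENQI and also diabetic and rosiglitazone overlapped as well. In aorta the healthy group was lowest and the diabetic group highest in all 3 probes, and every pair of neighbours among the KK/Ay groups overlapped.

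In muscle alone, huoxue and rosiglitazone were higher than the macroangiopathy group. The 3 huoxue arrays read 10.75, 10.88 and 10.90 and the 3 rosiglitazone arrays 10.69, 10.72 and 10.75 for the coding probe, against 10.13, 9.91 and 9.76 in the macroangiopathy group. The differences from macroangiopathy were 0.86, 0.91 and 0.65 for huoxue and 0.64, 0.79 and 0.47 for rosiglitazone, in the order A_52_P395228, A_51_P113399, A_51_P113395. All passed (limma, adjusted p from 0.000698 to 0.00456 for huoxue and from 0.00452 to 0.0397 for rosiglitazone).

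These muscle calls stand in a large background: 42.3% of all probes were called for huoxue and 18.1% for rosiglitazone in the same fits. The 3 huoxue muscle arrays and 1 rosiglitazone array lay on slide 11, whose arrays had the fewest probes well above background (21557 to 22990, against 23717 to 32076 elsewhere), and the macroangiopathy muscle arrays lay on slides 7 and 8. Slide and group cannot be told apart there. For rosiglitazone, leaving out single arrays ended the call of A_52_P395228 in 4 of 6 cases and that of A_51_P113395 in 5 of 6. Leaving out macroangiopathy array 2 or 3, or rosiglitazone array 2 or 3, ended both, at 0.52, 0.58, 0.61 and 0.63 for A_52_P395228 and 0.40, 0.39, 0.45 and 0.45 for A_51_P113395. Without rosiglitazone array 1 the latter was 0.49. All 3 huoxue calls held in every case.

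The same 2 comparisons did not pass the test for a tissue difference. The aorta difference minus the muscle difference was -0.85, -0.87 and -0.54 for huoxue and -0.73, -0.74 and -0.29 for rosiglitazone (limma, adjusted p from 0.104 to 0.534), where 6.26% and 4.44% of all probes were called.

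Other genes of NADPH supply were read from lists of its pathways that name each enzyme by its compartment. Not every listed enzyme makes NADPH itself. Of the 9 mitochondrial NADPH genes tested, apart from Nnt, 3 rose and 0 fell in KK/Ay over both tissues, with a median difference of 0.37 against 0.02 over all probes. That is 33.3% of the list, near the 29.5% of all probes called. Those that rose were the folate-pathway enzymes Mthfd1l (0.53 ± 0.20, adjusted p = 0.0435), Mthfd2 (0.50 ± 0.16, adjusted p = 0.0192) and Aldh1l2 (0.40 ± 0.10, adjusted p = 0.00250; limma). Idh2, the mitochondrial NADP+-dependent isocitrate dehydrogenase, rose in aorta (0.79 ± 0.28, adjusted p = 0.0343), with -0.06 ± 0.28 in muscle. The malic enzyme Me3 rose in muscle (0.91 ± 0.29, adjusted p = 0.0326), with -0.06 ± 0.29 in aorta.

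Of 10 cytosolic NADPH genes tested, 0 rose and 5 fell over both tissues, 50% of the list against 29.5% of all probes called, with a median of -0.71. Pgd (-1.56 ± 0.20) and G6pdx (-1.20 ± 0.19), the dehydrogenases of the pentose phosphate pathway, fell, as did Aldh1l1 (-1.21 ± 0.17) and malic enzyme Me1 (-1.18 ± 0.27). Their adjusted p in limma's fit was 4.47e-07, 1.20e-05, 2.12e-06 and 0.00146. These 4 fell in aorta, while Tkt and Nadk were the 2 that fell in muscle, and the tissue difference was not tested. The summed cytosolic NADPH intensity was 49930, 301500 and 161800 on healthy aorta arrays 1, 2 and 3. On the KK/Ay aorta arrays it was 45950 to 105100, so healthy array 1 lay within the KK/Ay range. The summed adipocyte intensity ran from 94260 to 349100 in C57 aorta and from 40100 to 246000 in KK/Ay aorta, and its part in the fall was not tested.

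Of 21 genes of the glutathione and thioredoxin systems, 4 rose and 4 fell over both tissues, 38.1% of the list against 29.5% of all probes, with a median of -0.06. In aorta 2 rose and 8 fell (47.6%, against 25.5% of all probes). In muscle 3 rose and 2 fell (23.8%, against 15.1% of all probes). The 3 reductases of these systems that take NADPH were not called over both tissues, at 0.17 for Gsr, 0.05 for Txnrd1 and -0.06 for Txnrd2. Txnrd1 fell in aorta (-0.22 ± 0.08, adjusted p = 0.0482) and rose in muscle (0.31 ± 0.08, adjusted p = 0.00867; limma). Glutaredoxin Glrx (1.06 ± 0.24) and peroxiredoxin Prdx2 (0.52 ± 0.09) rose over both tissues. By tissue, Glrx was called in muscle (1.37 ± 0.34) and not in aorta (0.74 ± 0.34). The mitochondrial peroxiredoxin Prdx3 (-0.55 ± 0.16) and Gclc (-0.49 ± 0.09), the catalytic subunit of glutathione synthesis, fell over both tissues. By tissue, Prdx3 fell in aorta (-1.31 ± 0.22) and was not called in muscle (0.22 ± 0.22). The tissue differences of these genes were not tested. Of 4 genes of superoxide and peroxide removal, the extracellular dismutase Sod3 rose (0.61 ± 0.20) and the cytosolic Sod1 fell (-0.36 ± 0.09) over both tissues. That is 50% of the list, against 29.5% of all probes. By tissue, 1 rose and 2 fell in aorta (75%, against 25.5% of all probes), and 0 were called in muscle.

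The TCA cycle, the oxidation route of the mitochondrial matrix, was counted in the same way. In aorta 0 of 17 TCA cycle genes rose and 4 fell, 23.5% of the list, near the 25.5% of all probes called there, with a median of -0.44: Dld (-1.07 ± 0.28), Sdhb (-1.003 ± 0.27), Sdha (-0.81 ± 0.30) and Suclg2 (-0.51 ± 0.16). In muscle, 1 of 17 rose (Sdhc, 0.90 ± 0.29) and 0 fell, 5.88% of the list against 15.1% of all probes, with a median of 0.47. The summed TCA intensity in muscle was 241200 to 419800 in C57 and 404000 to 482900 in KK/Ay, and these ranges overlap. Over both tissues 0 rose and 2 fell, 11.8% of the list against 29.5% of all probes, with a median of 0.02.

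**Figure D4:**
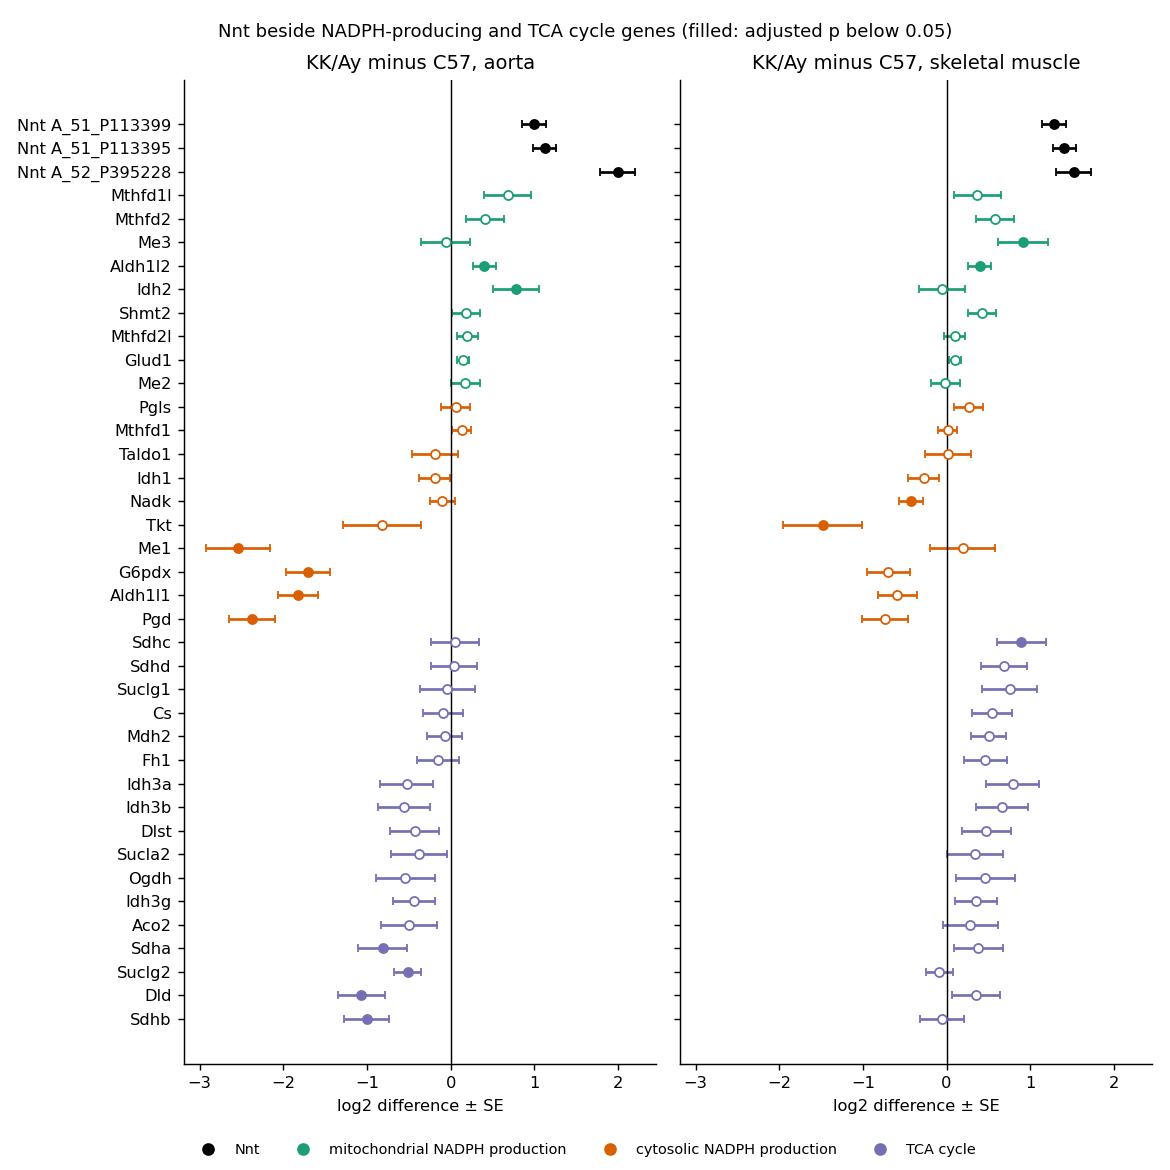
Log2 difference of KK/Ay minus C57 (x axis, bars ± SE from limma) in aorta (left) and skeletal muscle (right) for the 3 Nnt probes and for genes of mitochondrial NADPH supply, cytosolic NADPH supply and the TCA cycle (y axis); filled symbols passed an adjusted p of 0.05. Nnt lies right of 0 in both panels, 4 cytosolic NADPH genes lie left of 0 with filled symbols in aorta, and the TCA genes have a median of -0.44 in aorta and 0.47 in muscle.

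The neighbours of Nnt on chromosome 13 were read as well. Of the 5 nearest annotated genes on each side, 6 had a probe. The 2 that passed over both tissues, a share near the 29.5% of all probes called, were Tmem267 (-0.60 ± 0.08, adjusted p = 6.43e-07), opposite in direction to Nnt, and the noncoding 3110070M22Rik (0.24 ± 0.05, adjusted p = 0.000175; limma). Fgf10 (0.13), Paip1 (-0.11), 4833420G17Rik (-0.07) and Ccl28 (0.12) did not pass over both tissues. Ccl28 was called in muscle (0.27 ± 0.08, adjusted p = 0.0274; limma).

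The probes whose pattern was most like that of Nnt were found by Pearson's r over the 42 arrays after removal of each tissue's mean, among 25619 probes. As the C57 arrays enter this measure, it favours genes that differ between the strains, and it is given as a description. The microtubule-associated protein gene Mtap1b was highest for all 3 probes (r = 0.91 for A_52_P395228, 0.87 for A_51_P113399 and 0.89 for A_51_P113395). The other highest were Arsk, Abcc9, Ccnb1ip1 and 6820431F20Rik for A_52_P395228, and Spata2, Tomm20, Ccnb1ip1 and Arsk for A_51_P113399. For A_51_P113395 they were agouti, Ccnb1ip1, Masp2 and Pdxdc1.

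Abcc9 encodes the sulfonylurea receptor of vascular ATP-sensitive potassium channels, and Tomm20 an import receptor of the mitochondrial outer membrane. Without the C57 arrays, r for these pairs was 0.31 to 0.74. The lowest r was that of Pnpla8 for A_52_P395228 (-0.89), Galk2 for A_51_P113399 (-0.86) and the replication-licensing inhibitor Gmnn for A_51_P113395 (-0.88). The other lowest were Gmnn, Uhmk1, Hist3h2bb-ps and Kbtbd2 for A_52_P395228, Pop4, Pnpla8, Gmnn and Tpd52l2 for A_51_P113399, and Mapk8, Hist1h4i, Napa and Slc35a5 for A_51_P113395. With the KK/Ay arrays alone, r of the lowest pairs ran from -0.73 (Galk2) to -0.12 (Slc35a5).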

How the data were processed

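Total RNA was labelled with Cy3 and hybridised to 42 one-colour Agilent arrays (41174 probes; mm9 probe coordinates), which were read with Agilent Feature Extraction 10.7 per the submitters' processing notes. The deposited scanner files hold intensity: the median signal and local background of each spot, and the scanner's processed signal. A series table of log2 values that the authors deposited, background-corrected and quantile-normalized with limma per their methods, was used as an alternative. Here the median signal was corrected by normexp (offset 0), quantile-normalized over all arrays and averaged per probe without irregular spots (limma 3.58.1, R 4.3.3).

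Probes entered a test where every array of some compared set (3 arrays of a group in a tissue) read them well above background. Models used lmFit and eBayes with Benjamini-Hochberg adjustment over all probes tested; a call is an adjusted p under 0.05. KK/Ay against C57, tissue and their interaction came from a fit of 42 arrays with 14 means, and 2-group comparisons from their 12 arrays with tissue as a term. The fits were tested on simulated data. Named were all Nnt probes, up to 4 called genes per list with the largest difference (brightest probe per gene) and single-tissue calls beside them, the 5 nearest genes on each side and the 5 most and least alike probes. Agouti, the probe described as Nnt and marker genes called were named beside that rule. The members and lists were chosen with earlier results of these data known. Gene names are those of the scanner files, of which 33536 matched the reference table. The number of arrays limits the precision. Arrays have no depth; signal over background stands in its place. Alternatives were other background corrections and normalizations, filters, blocks for slide, scan day and replicate number, single tissues and each array left out.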

Additional observations from a re-analysis of the deposited data

How the results depend on the processing

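Over 1272 refits of the 3 probes in 12 comparisons, 1259 kept their side of the threshold, 7 lost a call and 6 gained one, all 13 in a single tissue. In aorta alone the differences were 2.38, 1.32 and 1.34 (A against G) and 1.91, 0.92 and 1.02 (C against G) for A_52_P395228, A_51_P113399 and A_51_P113395, none called; in muscle alone A_52_P395228 was 1.12 (C against G), not called. In muscle alone, E against C (0.86, 0.91 and 0.65) and F against C (0.64, 0.79 and 0.47) became called. A change of sign occurred 17 times, in differences not called under either setting. KK/Ay against C57 over both tissues stayed called in all 53 alternatives, at 1.67 to 2.00, 1.02 to 1.63 and 1.14 to 1.85, with adjusted p up to 0.000288 (limma).

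Replicate numbers are not said to pair mice, and same-numbered arrays correlated at -0.53 to 0.62. With the replicate block, KK/Ay against C57 stayed at 1.76, 1.14 and 1.27, and no Nnt call changed. The number of probes called fell from 1521 to 886 for C against G and from 94 to 0 for F against C with the block, and to 2 for F against C with the processed signal; the cause was not tested. Slide as a fixed block with 14 means could not be fitted. The blocks for slide and scan day with tissue-by-strain means, the fit without slides 1, 3 and 11, and single-tissue fits with an array left out were chosen after seeing the data. Signal close to background limits A_51_P113399 and A_51_P113395 in C57 aorta.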

Other observations

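Among the 18 KK/Ay arrays of each tissue, the mean of the 3 Nnt probes was set against the log2 of the summed intensity of the TCA cycle list and 6 marker lists, 14 relations in all (permutation tests with 100000 resamples, two-sided, Benjamini-Hochberg over the 14). Nnt showed no detectable relation with the TCA cycle genes, neither in aorta (r = -0.07, permutation p = 0.795, adjusted 0.856; rho = -0.01, p = 0.986, adjusted 0.986) nor in muscle (r = 0.26, permutation p = 0.292, adjusted 0.584; rho = 0.23, p = 0.360, adjusted 0.630). Without the 2 arrays farthest from the median of the TCA sum, r was -0.09 and 0.28. Within the scan day that held 16 of the 18 arrays it was -0.18 and 0.20.

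The one relation that passed was with cardiac muscle markers in skeletal muscle (r = 0.67, permutation p = 0.00238, adjusted 0.0333; rho = 0.69, p = 0.00206, adjusted 0.0288). It was 0.52 without the 2 farthest arrays and 0.63 within the main scan day. After each group's mean was removed it was 0.08, so the relation rests on differences between the groups, which in muscle lie largely on different slides. The log2 means in KK/Ay muscle were 12.84 for Myh6, 9.47 for Myl4, 8.94 for Tnnt2, 6.84 for Nppa and 6.80 for Myl7. The cardiac sum there thus reads mainly Myh6, and Myl7 was well above background on 2 of the 18 arrays. In aorta, smooth muscle markers had r = 0.52 (permutation p = 0.0254, adjusted 0.0745) and rho = 0.43 (p = 0.0763, adjusted 0.214). It was 0.07 without the 2 farthest arrays, 0.51 within the main scan day and 0.69 after each group's mean was removed. The pooled value did not pass the correction. Nor did smooth muscle, skeletal muscle and leukocyte markers in skeletal muscle, at r = 0.52, -0.55 and 0.55 (permutation tests, adjusted p = 0.0745 each). After each group's mean was removed these were -0.32, 0.075 and -0.25, and adipocyte markers in muscle were at -0.62. The permutations moved arrays freely across groups and slides, so their p-values allow for neither.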
